A study of Sus scrofa with 5 samples.

Results

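The smooth muscle contractile genes are the actins, actin-binding proteins, myosin and intermediate filament protein that build the contractile apparatus of smooth muscle cells. Members were the probe sets annotated with exactly 1 gene symbol among ACTA2, ACTG2, CNN1, DES, MYH11, TAGLN, SMTN and LMOD1, a rule that uses no measured value. The rule found 10 of the 23999 probe sets tested on the porcine Affymetrix array, and they covered 6 of the 8 genes. ACTA2, CNN1 and TAGLN had 1 probe set each, ACTG2 and DES had 2 each, and SMTN had 3. MYH11, the smooth muscle myosin heavy chain, and LMOD1, the leiomodin that starts actin filaments in smooth muscle, had no probe set and were not measured here.

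RNA came from the backfat of 5 female Iberian × Landrace backcross pigs, with 1 array per animal. BC4, BC5 and BC6 formed the H group, whose intramuscular fat was richer in polyunsaturated fatty acids. BC2 and BC3 formed the L group, whose intramuscular fat was richer in saturated and monounsaturated fatty acids. The animals had been assigned by a principal component of carcass and intramuscular fatty acid traits. All had the same cereal-based feed, were slaughtered at about the same age and descended from few Iberian founder boars, so that the results describe this cross and sex. The question put to the members was whether their backfat RNA levels differed between H and L.

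Smooth muscle cells in backfat lie mainly in the walls of arteries and veins, where their tone sets the flow of blood through the tissue. Contraction starts when calcium lets the light chain kinase phosphorylate the myosin light chain, after which myosin pulls on filaments of smooth muscle actin. Calponin and transgelin bind those filaments, smoothelin marks fully contractile cells, and desmin links the filaments to dense bodies and to the cell membrane. In bulk tissue, fewer cells of a type and less RNA per cell cannot be told apart.

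Values are on the log2 scale, so that a difference of 1 is a doubling of the signal. The lowest value was 2.17, a floor that 5576 probe sets (23.2%) held on all 5 arrays, and the highest was 16.06. The array medians lay between 4.21 and 4.29. The extraction note names liver, whereas the other labels name backfat. The adipocyte lipid carrier FABP4 read 15.4 to 15.5 on the 5 arrays, and the hepatocyte genes TTR, APOB, SERPINA1 and CPS1 read at most 2.23. Of the other hepatocyte genes measured, ALB read 2.58 to 4.69, TF 3.61 to 4.61, HP 2.47 to 3.25, FGB 2.17 to 3.14 and APOA1 11.3 to 12.6. The 12 probe sets for the poly-A spike-in controls, RNAs added to check labelling, averaged 7.58 in BC3 and 7.29 in BC5 but 4.69 to 4.93 in BC2, BC4 and BC6. Each of these sets of arrays holds animals of both groups.

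None of the 6 measured genes differed between H and L beyond the spread of the arrays. A probe set was called at a p of 0.01 or less, an adjusted p of 0.1 or less and a fold of 1.2 or more. By limma, 0 of 10 member probe sets were called, beside 0 of all 23999 (0%). An unadjusted p under 0.05 was reached by 0 of 10 members, beside 762 of all probe sets (3.18%), with 384 of them higher in H and 378 lower. Of the members, 2 probe sets (one of DES and one of SMTN) never left the floor, and the other 8 gave values. In all 8 the H mean lay above the L mean, beside 52.7% of all probe sets above the floor on some array. In 0 of the 7 members with distinct values on the 5 arrays did the groups separate without overlap, beside 20.9% of such probe sets. The adjusted p from limma was 1 for each member. Where a gene had several probe sets, the one with the highest mean stood for it.

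**Figure D1:**
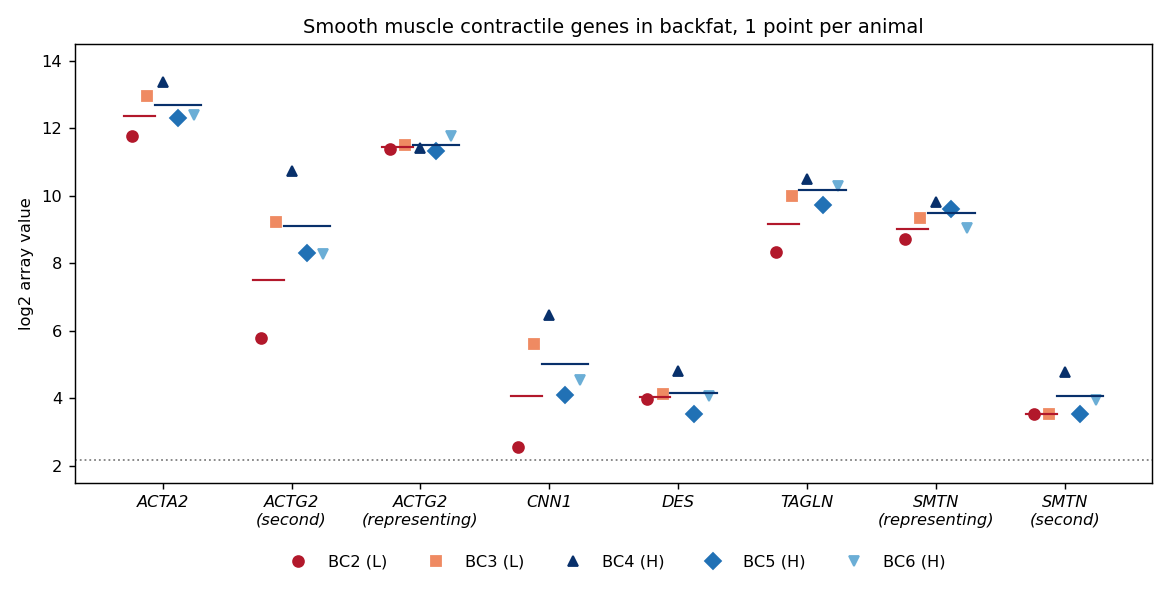
Log2 array value (vertical axis) of the 8 member probe sets above the floor, with 1 point per animal, red tones for L and blue tones for H. Horizontal bars are group means and the dotted line is the floor of 2.17. In every probe set the values of the groups overlap or touch.

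The actins are the filaments on which smooth muscle myosin pulls. ACTA2, the α-actin of vascular smooth muscle, had a single probe set. It read 11.78 in BC2 and 12.97 in BC3 of L, and 13.38 in BC4, 12.31 in BC5 and 12.40 in BC6 of H. The L animals enclosed BC5 and BC6, and only BC4 lay above both of them. The means were 12.69 ± 0.594 (SD, n = 3) in H against 12.38 ± 0.841 (SD, n = 2) in L. The difference of 0.32 (SE 0.593, 95% interval -1.46 to 2.10) was smaller than the 1.19 between the L animals, which is a 2.28-fold gap within 1 group.

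ACTG2, the γ-actin of enteric and some vascular smooth muscle, gave conflicting readings from its pair of probe sets. The brighter read 11.39 in BC2, 11.50 in BC3, 11.42 in BC4, 11.33 in BC5 and 11.79 in BC6. These values spanned 0.458 over all 5 arrays, and the lowest and highest both belonged to H. Group means were 11.51 ± 0.243 (SD, n = 3) in H against 11.45 ± 0.0822 (SD, n = 2) in L, a difference of 0.07 (SE 0.176, 95% interval -0.46 to 0.59).

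The second ACTG2 probe set read 5.79 in BC2, 9.23 in BC3, 10.75 in BC4, 8.30 in BC5 and 8.28 in BC6. It had the widest span of all members, 4.95 or 31.0-fold between BC2 and BC4, and 99.8% of the probe sets above the floor on some array spanned less. The gap between the L animals alone was 3.44 (10.8-fold). The H mean was 9.11 ± 1.42 (SD, n = 3) and the L mean 7.51 ± 2.43 (SD, n = 2), a difference of 1.60 (SE 1.57, 95% interval -3.12 to 6.31). Which of these probe sets follows the gene was not tested.

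Calponin and transgelin sit along the actin filaments of contractile cells. CNN1, basic calponin, slows the turnover of myosin heads on actin. It read 2.55 in BC2, close to the floor, and 5.61 in BC3, against 6.45 in BC4, 4.09 in BC5 and 4.53 in BC6. BC3 of L exceeded BC5 and BC6 of H, while BC2 was below them all. The L animals were 3.06 apart (8.35-fold), which exceeded the group difference of 0.95 (SE 1.40, 95% interval -3.24 to 5.14). The means were 5.03 ± 1.26 (SD, n = 3) in H against 4.08 ± 2.17 (SD, n = 2) in L, and the span of 3.91 over the arrays (15.0-fold) exceeded that of 99.6% of probe sets above the floor.

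TAGLN, or SM22, is an early and abundant marker of smooth muscle differentiation. It read 8.34 in BC2, 9.98 in BC3, 10.50 in BC4, 9.73 in BC5 and 10.30 in BC6. BC2 stood below the other 4 arrays, and BC3 lay within the range of H. TAGLN had the largest group difference among the probe sets that stand for a gene, 1.01 (SE 0.643, 95% interval -0.92 to 2.94), with means of 10.17 ± 0.397 (SD, n = 3) in H against 9.16 ± 1.16 (SD, n = 2) in L. Without BC2 that difference was 0.19.

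SMTN encodes smoothelin, a cytoskeletal protein of fully differentiated smooth muscle. Its brightest probe set read 8.71 in BC2, 9.35 in BC3, 9.82 in BC4, 9.62 in BC5 and 9.05 in BC6. BC4 and BC5 lay above both L animals, and BC6 lay between them. The means were 9.49 ± 0.397 (SD, n = 3) in H against 9.03 ± 0.450 (SD, n = 2) in L, a difference of 0.47 (SE 0.359, 95% interval -0.61 to 1.54). Of the probe sets that stand for a gene, this alone had a higher H value at both levels of spike-in signal. The difference was 0.72 among the arrays with low signal (BC2 against BC4 and BC6). It was 0.27 at high signal, from the single pair of BC3 and BC5.

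The second SMTN probe set read 3.53 in both L animals and in BC5, 4.77 in BC4 and 3.94 in BC6. Its difference was 0.55 (SE 0.446), with 0.83 among the arrays of low and 0 between those of high spike-in signal. The third was at the floor throughout.

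DES encodes desmin, the intermediate filament of muscle cells, which skeletal muscle makes as well. The brighter of its probe sets read 3.96 in BC2, 4.13 in BC3, 4.82 in BC4, 3.53 in BC5 and 4.08 in BC6. The L values lay between the lowest and the highest H value. The means were 4.14 ± 0.645 (SD, n = 3) in H against 4.05 ± 0.118 (SD, n = 2) in L, with a difference of 0.10 (SE 0.458, 95% interval -1.28 to 1.47). The other was at the floor throughout.

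The members varied between animals more than between groups, and most shared their extreme animals, BC2 and BC4. Only ACTA2 and CNN1 had all their animals in the same order. The shared extremes were noticed after the values were seen, so their counts are a description. BC4 was highest in 6 and BC2 lowest in 5 of the 7 members with distinct values. Both held together for 5 of 7, namely ACTA2, the second ACTG2 probe set, CNN1, TAGLN and SMTN, beside 4.04% of all probe sets with distinct values. BC4 of H also exceeded BC3 of L in 5 of the 6 genes. Within L, BC3 was above BC2 by 1 or more in 4 of the 8 members above the floor, beside 2.89% of all probe sets above the floor.

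**Figure D2:**
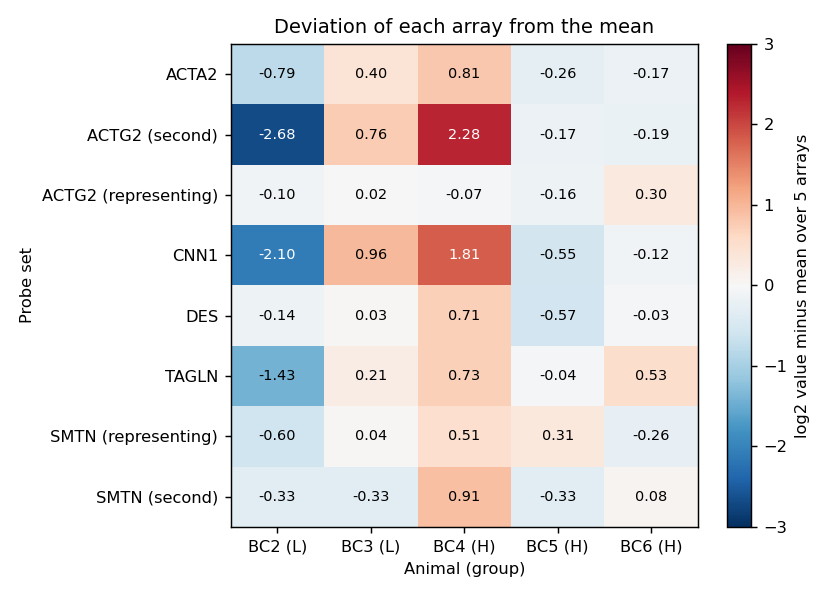
Value of each member probe set (rows) on each array (columns) minus its own mean over the 5 arrays, on the log2 scale, with red above and blue below the mean. BC2 is lowest and BC4 highest in 5 of the 7 probe sets with distinct values, and in the second SMTN probe set, where BC3 and BC5 are equal. The second ACTG2 probe set has the deepest colours while the brighter (representing) one stays pale throughout.

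With each gene centred on its own mean, the 6 genes averaged -0.86 in BC2, 0.28 in BC3, 0.75 in BC4, -0.21 in BC5 and 0.04 in BC6. ACTA2 followed the mean of the other genes most closely, at a root mean square distance of 0.145 over the 5 arrays, and SMTN, TAGLN and DES lay at 0.396, 0.414 and 0.453. ACTG2 lay at 0.631 by its brighter probe set, which hardly moved. CNN1 lay farthest, at 0.971, with its animals in the same order as those of ACTA2 but farther apart.

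The median group difference over the 6 genes was 0.39, with all 6 H means above the L means, beside a median of 0.00 over all 6765 genes with a probe set. That median rested on single animals. It was 0.01 without BC2, with 4 of 6 genes higher in H, and 0.85 without BC3. It was 0.17 without BC4, again with 4 of 6 higher, 0.46 without BC5 and 0.58 without BC6. With the second probe set of ACTG2 it was 0.71. Among the arrays with low spike-in signal (BC2 against BC4 and BC6) the median was 0.92 with 6 of 6 genes higher in H. Between the pair with high spike-in signal (BC3 against BC5) it was -0.42 with 1 of 6 higher. No more than 1 L animal stood on either side, and the part of labelling in these values was not tested.

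**Figure D3:**
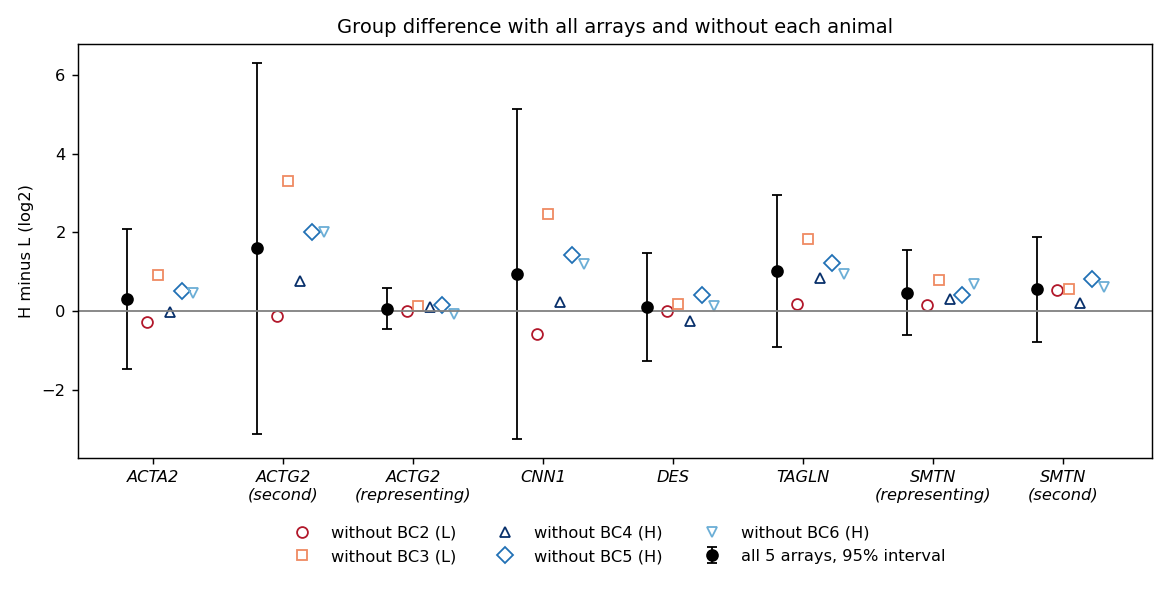
H minus L on the log2 scale (vertical axis) for the 8 member probe sets above the floor. Filled points are the limma estimates from 5 arrays with 95% intervals, and open points are the estimates without 1 named animal. Every interval includes 0, and without BC2 the differences of ACTA2, CNN1 and the second ACTG2 probe set fell below 0.

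The arrays also carry controls that read RNA integrity. The gap between the 3′ and 5′ control probe sets of GAPDH was 1.52 in BC2, 1.82 in BC3, 1.90 in BC4, 2.49 in BC5 and 1.81 in BC6, and that of actin was 4.06, 4.77, 4.03, 4.80 and 3.85 in the same order of animals. BC5 had the widest gap for both. The extremes of the members, BC2 and BC4, had the narrowest and the second widest gap for GAPDH, and close values for actin. The part of RNA integrity in the members' values was not tested.

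The other genes of the contractile apparatus were taken by fixed lists according to their roles, and 0 genes of these lists were called. The partners of the actin filament comprised 16 measured genes of 20, of which 14 had higher H means and 2 lower, with a median difference of 0.25. Without BC2 that median was 0.00, and without BC3 it was 0.56. The groups separated in 3 of the 15 with distinct values (CALD1, ACTN1 and PDLIM7), a share close to the 20.9% of all such probe sets. ACTN1, an α-actinin that bundles actin, read 10.61 and 10.45 in L against 11.00, 10.90 and 11.12 in H, a difference of 0.47 (SE 0.094). CALD1, or caldesmon, which holds myosin off actin, went the other way, with 13.49 and 13.48 in L against 13.20, 13.29 and 13.14 in H, a difference of -0.28 (SE 0.054). Both had an unadjusted p of 0.011 and an adjusted p of 1 in limma. PDLIM7, a scaffold on actin filaments, differed by 0.71 (SE 0.311) and CSRP1, a LIM protein of smooth muscle, by 0.38 (SE 0.279).

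The filament partners as a whole also had their lowest value in BC2, whose centred mean was -0.42, but the other 4 arrays were nearly level at 0.06 to 0.13. TPM2, a tropomyosin of muscle filaments chosen after its values were seen, read 9.20 in BC2 and 10.72, 10.86, 10.56 and 10.25 in BC3 to BC6. Its lowest and highest animals, BC2 and BC4, were those of the members. The tropomyosins TPM1 and TPM4, also chosen later, differed from it. TPM1 was highest in BC5, at 13.24, and TPM4 was lowest in BC4, at 11.44. ACTN1 was highest in BC6, CALD1 in BC2, and PDLIM7 and CSRP1 in BC5. The genes for myosin and its control averaged -0.19 in BC2 and 0.19 in BC4, and those for calcium handling and receptors -0.23 and 0.30. In both lists these animals had the lowest and the highest mean, as in the members. The BC4 mean of the myosin list leaned on MYL9, which read 7.83 there and 4.79 to 6.03 elsewhere. PPP1R14A, chosen after its values were seen, was also highest in BC4. MYL6 and RHOA were highest in BC5, PPP1R12A in BC6 and ROCK2 in BC2. The BC4 mean of the calcium list leaned on KCNMB1 and on RYR2, both chosen after their values were seen. KCNMB1 read 5.11 in BC4 and 2.17 in BC2, and RYR2, close to the floor, read 3.55 in BC4 and 2.30 to 2.72 elsewhere. GUCY1B3 was highest in BC5 and EDNRB in BC6. AGTR1, also chosen later, was highest in BC2 and lowest in BC4.

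Of the genes for myosin subunits and light chain control, 11 of 16 were measured, with 7 H means higher, 2 lower and a median difference of 0.08. That median was 0.00 without BC2 and without BC4, 0.19 without BC3 and 0.18 without BC6. The non-muscle heavy chain MYH10 and the kinase MYLK, which switches smooth muscle myosin on, were at the floor on all arrays. The genes named by smallest p were PPP1R12A, the targeting subunit of myosin phosphatase, at 0.24 (SE 0.136), the small GTPase RHOA at 0.26 (SE 0.180), the light chain MYL6 at 0.17 (SE 0.138) and the kinase ROCK2, close to the floor, at -0.03 (SE 0.021). MYL9, the regulatory light chain of smooth muscle myosin, was chosen after its values were seen. It read 4.79 in BC2, 6.03 in BC3, 7.83 in BC4 and 5.68 in both BC5 and BC6, a difference of 0.99 (SE 0.979) with BC2 lowest and BC4 highest as in the members.

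Calcium handling and receptors gave 10 measured genes of 18, with 8 H means higher, 1 lower and a median difference of 0.15. Without BC2 that median was 0.010, without BC4 0.0013 and without BC6 0.24. The groups separated in 1 of 5 with distinct values, again close to 20.9%. This was EDNRB, an endothelin receptor, which differed by 0.35 (SE 0.163). ATP2A2, the calcium pump of the sarcoplasmic reticulum, differed by 0.15 (SE 0.166), GUCY1B3, a subunit of the nitric oxide receptor, by 0.33 (SE 0.349), and KCNMA1, a potassium channel close to the floor here, by 0.02 (SE 0.023). KCNMB1, the smooth muscle subunit of that channel, was chosen after its values were seen and read 2.17 in BC2, 4.71 in BC3, 5.11 in BC4 and 2.83 in BC5 and BC6.

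The SRF and myocardin axis holds transcription factors and cofactors that control contractile genes, not all of them as activators. Of its genes, 4 of 10 were measured and all 4 had lower H means, with a median of -0.11 that was -0.35 without BC2. TEAD1 differed by -0.57 (SE 0.468), MYOCD by -0.16 (SE 0.071), KLF4 by -0.049 (SE 0.161) and GATA6 by -0.0032 (SE 0.558). MYOCD, the cofactor myocardin, read 3.40 and 3.20 in L and 3.14 in each H animal. Among the other actins, 3 of 4 were measured, with ACTB at 0.32 (SE 0.267), ACTG1 at 0.11 (SE 0.224) and the cardiac ACTC1, close to the floor, at 0.07 (SE 0.085).

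No marker list of another cell type had its highest mean in BC4, where the members had theirs. The endothelial markers were also lowest in BC2, at a centred mean of -0.54, beside -0.86 for the members. Skeletal muscle markers (10 of 13 measured) averaged 2.57 and 3.96 in L and 2.52 to 5.61 in H, with 9 H means higher and 1 lower. They were highest in BC5. MYH2, a fast myosin heavy chain chosen after its values were seen, read 2.17 in BC2 and BC6, 2.71 in BC4, 4.75 in BC3 and 7.84 in BC5. DES, which both kinds of muscle make, had its lowest value in BC5. Endothelial markers (8 of 9) averaged 7.79 and 8.35 in L and 8.08 to 9.08 in H, with 7 H means higher and 1 lower. KDR was at or near the floor, and CLDN5, a tight junction protein, differed by 1.13 (SE 0.542). Pericyte markers (4 of 7) averaged 9.06 and 9.50 in L and 9.02 to 10.13 in H, with 3 H means higher and 1 lower. PDGFRB, the receptor that recruits pericytes, differed by 0.53 (SE 0.353), and RGS5 went the other way at -0.20 (SE 0.244). Both lists were also highest in BC5, where the members lay below their mean. The median difference of the skeletal list was 0.29 with all arrays, -0.58 without BC5 and -0.27 without BC2, and that of the pericyte list was 0.16, -0.21 and -0.12. That of the endothelial list was 0.40 with all arrays, 0.098 without BC5, 0.24 without BC2, 0.64 without BC3 and 0.60 without BC6.

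**Figure D4:**
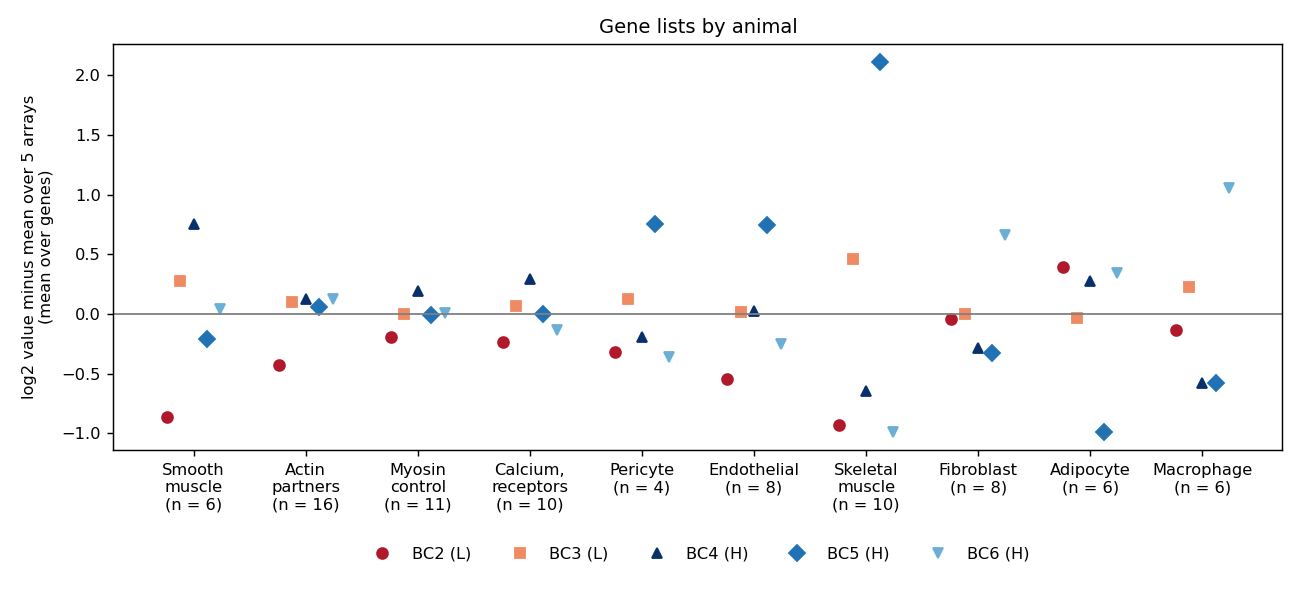
Mean over the measured genes of each list of the log2 value minus the gene's own mean over the 5 arrays (vertical axis), with 1 point per animal. Smooth muscle genes run from -0.86 in BC2 to 0.75 in BC4, whereas pericyte, endothelial and skeletal muscle markers are highest in BC5 and macrophage markers in BC6. Endothelial markers are lowest in BC2, at -0.54, as are the smooth muscle genes.

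Adipocyte markers (6 of 8 measured) averaged 12.4 and 11.9 in L and 11.0 to 12.3 in H, with 3 H means higher and 3 lower. They were lowest in BC5, where LEP, the hormone leptin, also chosen after its values were seen, read 4.41 against 8.27 to 10.48 in the other 4 animals. Fibroblast markers (8 of 10) averaged 9.65 and 9.69 in L and 9.36 to 10.35 in H, and macrophage markers (6 of 8) 5.37 and 5.73 in L and 4.92 to 6.56 in H. COL3A1 of the former and MARCO of the latter were at the floor on all arrays. Both lists were highest in BC6. The mesothelial markers WT1 and KRT19 (2 of 4) were at or near the floor except KRT19 in BC6, at 3.30. None of these markers was called, and their part in the members' values was not tested.

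The genes whose centred values came closest to the members' mean were ranked over 4812 other genes that lay on average at least 2 above the floor. They were IL11RA, FLNA, PLN, SGK1, SULT1A3 and RBM42, at root mean square distances of 0.167, 0.188, 0.190, 0.213, 0.224 and 0.232 over the 5 arrays, beside a median of 0.572. IL11RA, the receptor of interleukin 11, read 7.67 in BC2, 8.29 in BC3, 9.03 in BC4, 7.97 in BC5 and 8.34 in BC6. FLNA, which crosslinks actin filaments, read 6.99, 7.74, 8.12, 7.60 and 7.61 in the same order. PLN, or phospholamban, which restrains the calcium pump of the sarcoplasmic reticulum, read 6.36, 7.33, 7.46, 7.02 and 7.01. All 6 had BC2 lowest and BC4 highest, as this ranking favours, and their group differences of 0.14 to 0.47 were not called.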

How the data were processed

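Backfat RNA of 5 pigs was hybridized to porcine Affymetrix arrays. The animals' letters H and L come from the study's list of animals, since the labels give only names. The authors background-adjusted, normalized and summarized the deposited log2 values per probe set. RMA appears in the submitters' processing notes and GCRMA in the paper's methods, so which of them made the values is not settled. The number of arrays, not a read depth, limits the precision.

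After 124 control probe sets were left out, 23999 were fitted with limma 3.58.1 in R 4.3.3 (lmFit and eBayes), H minus L, with no covariate, and p-values were adjusted over all by Benjamini-Hochberg. A probe set was called at p of 0.01, adjusted p of 0.1 and a fold of 1.2. Steps were tested on simulated data. Gene names came from GEO's platform annotation: 10069 probe sets had 1 symbol, 198 several and 13732 none. Each gene was represented by its brightest probe set. Over 14 lists, 103 of 143 genes were measured. Text names every member, up to 4 genes per list with the smallest p, the 6 genes most like the members, all measured hepatocyte genes, genes at or near the floor in a list, and others said to be chosen later. Values within 1e-06 counted as equal. Members and lists were chosen with earlier results of these data known. Alternatives were variance models, array weights, a filter on the dimmest 40%, scalings, a threshold of adjusted p 0.05, averaged probe sets and leaving out each animal. The spike-in covariate and the other ACTG2 probe set were added after seeing the data.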

Additional observations from a re-analysis of the deposited data

How the results depend on the processing

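No paired analysis was possible because H and L hold different animals with no number in common. No member was called under any of the 13 alternatives. Over all probe sets, 0 passed with 5 arrays, except 1 with the spike-in level as a covariate (no gene symbol, H minus L 0.44, adjusted p 0.0989 in limma), while leaving out single animals gave 0 to 286: 160 without BC2 and 286 without BC3, where the lone L array is assumed to vary like the H arrays, and 0 otherwise. Of 99 recomputed member differences 93 kept their direction and 6 reversed, all 6 on leaving out 1 animal. The variance models and the filter leave a difference unchanged, so under them no direction could reverse. Without BC2, ACTA2 was -0.28, the second ACTG2 probe set -0.12 and CNN1 -0.58. Without BC4, ACTA2 was -0.023 and DES -0.24. Without BC6, the brighter ACTG2 probe set was -0.073. The highest values of these probe sets when 1 animal was left out were 0.91 for ACTA2, 3.32 for the second and 0.16 for the brighter ACTG2 probe set, 2.48 for CNN1 and 0.40 for DES. The cause was not tested. The median over the 6 genes ranged from 0.01 to 0.85 when single animals were left out and from 0.35 to 0.71 under the other alternatives. Averaging all probe sets of a gene moved ACTG2 from 0.07 to 0.83. With 2 L animals, whose gap exceeded the group difference in each of the 6 genes, the intervals of CNN1 and the second ACTG2 probe set reach 5.14 and 6.31 on the log2 scale.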
